A study of Mus musculus with 25 samples.

Results

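The microRNA precursors mmu-mir-192, mmu-mir-194-1, mmu-mir-194-2 and mmu-mir-122, known from the liver and the gut, were followed in mouse blood across adult life. They were picked by name and are 4 of the 1193 precursors in the deposited count table. The 25 small RNA libraries came from blood of male C57BL/6 mice aged 2, 9, 15, 24 or 30 months, with 5 libraries at each age and no treatment or altered gene named in the labels. The libraries were made from total RNA with a TruSeq small RNA kit. The labels do not say whether cells or plasma were taken, and they do not state that each library came from a separate animal, so p-values measure the spread between these libraries, which may be technical.

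mir-122 is the leading microRNA of hepatocytes, and its level in plasma is widely used as a sign of liver injury. mir-192 and mir-194 are made together from clustered hairpins in the liver, the intestinal epithelium and the kidney, where factors of the hepatocyte nuclear factor family drive them, and both are also known targets of p53. A microRNA recognises its target messenger RNAs mainly through its seed, bases 2 to 8 from the 5′ end.

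The mature sequences show which of the members can be told apart by sequencing. They are given as RefSeq has them with GRCm38.p6, 5′ to 3′, with the seed in capitals. mir-215 is added because its main product has the seed of miR-192-5p.
miR-192-5p: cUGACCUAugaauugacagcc
miR-215-5p: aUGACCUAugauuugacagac
miR-194-5p: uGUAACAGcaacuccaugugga
miR-194-1-3p: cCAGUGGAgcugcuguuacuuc
miR-194-2-3p: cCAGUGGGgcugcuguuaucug
miR-192-5p and miR-215-5p differed at 3 of 21 positions, C1A, A12U and C20A, counted from the 5′ end with the base of miR-192-5p first. Among the 1679 mature names of the sequence table, their seed UGACCUA was found in these 2 only. The 5p product of mir-194 is the same in both of its hairpins, and no other mature name held its seed. The 3p products of the 2 hairpins differed at 4 of 22 positions, A8G, C19U, U20C and C22G, so 1 of the differences lies in the seed. The seed of miR-194-2-3p is also that of miR-6926-5p and miR-7055-5p, whose precursors were not followed here.

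The hairpins of mir-194 are shown whole, with the 5p and 3p products in capitals, because a read of the first product fits both of them.
mir-194-1: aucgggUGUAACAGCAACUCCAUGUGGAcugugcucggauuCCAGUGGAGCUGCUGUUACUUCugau
mir-194-2: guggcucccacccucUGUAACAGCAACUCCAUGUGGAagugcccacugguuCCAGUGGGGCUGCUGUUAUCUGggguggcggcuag
mir-194-2 lies at chr19:6264643-6264728 and mir-192 at chr19:6264844-6264932, both on the plus strand of GRCm38.p6, with 115 bases between them and no other gene of GENCODE vM21 over either. mir-194-1 lies on the plus strand at chr1:185313319-185313385, in an intron of the antisense transcript 2010103J01Rik and, on the other strand, within an intron of Iars2, which encodes a mitochondrial isoleucyl-tRNA synthetase. mir-215 follows it at chr1:185313581-185313692 after 195 bases, in an exon of 2010103J01Rik. The 2 clusters thus each pair a mir-194 hairpin with a hairpin of the shared seed.

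The libraries held 4884058 to 24253236 counts, with a median of 15391048. Depth differed with age: the 5 libraries at 30 months held 5746508 to 13070018 counts, below every library at 2 months (16209205 to 22245787). Levels are given as CPM, the count of a precursor per 1000000 counts of its library, with library sizes scaled by TMM, edgeR's adjustment for library composition. The 8 precursors of a red cell list (mir-451a, mir-144, both mir-486, both mir-16, mir-92a-1 and mir-25) took 76.0% ± 0.579 (SD, n = 5) of all counts at 2 months and 73.9% ± 2.31 at 30 months. Both mir-486 rows held nearly the same mean at 2 months (338305 and 338068 CPM), as did both mir-16 rows (16499 and 16490 CPM). This share may therefore count the same reads at both hairpins, which the labels do not state. In bulk samples such as these, fewer cells of a type and less RNA per cell cannot be told apart.

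mir-192 was by far the most abundant of the 4. Its mean was 4250 CPM, or 0.425% of all counts, which placed it 20th of the 1193 precursors. mir-194-2 was 86th with 104 CPM, mir-194-1 was 89th with 92.2 CPM, and mir-122 was 389th with 0.327 CPM. mir-215 was 79th with 149 CPM. The mature products differ by 1 base in length at most, but kits for small RNA capture different sequences with different efficiency, so an order of read counts between microRNAs is no order of molecules. The 3 abundant members ranged over the 25 libraries by factors of 1.95 (mir-192), 2.11 (mir-194-1) and 2.01 (mir-194-2) from lowest to highest, and mir-215 by a factor of 5.29. Within an age the SD of log2 CPM was 0.28 for mir-192, 0.21 for both mir-194 precursors and 0.61 for mir-215. Among the 152 tested precursors of at least 10 CPM, the median of that SD was 0.28.

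mir-192 was lowest on average at 2 months and highest at 30 months. At 2 months the libraries stood at 4052, 3954, 3527, 2987 and 3246 CPM, a mean of 3553 ± 454 (SD, n = 5). At 9 months they stood at 3438, 3294, 5391, 3718 and 4941 CPM (4157 ± 948). At 15 months they stood at 4178, 3465, 4879, 3907 and 5832 CPM (4452 ± 926). The 9-month and 15-month libraries overlapped with those at 2 months, and in each of these ages at least 1 library lay well above the rest. At 24 months the values were 2991, 4343, 3278, 5290 and 4544 CPM (4089 ± 946). At 30 months they were 5840, 5439, 3780, 4953 and 4980 CPM (4998 ± 773). Of the 5 libraries at 30 months, 4 lay above the highest at 2 months and 1, the third replicate, lay between the 2-month values. Ordered by their means the ages ran 2, 24, 9, 15 and 30 months, and each age overlapped with the next in that order.

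The change of mir-192 did not pass the test over all precursors. With edgeR's quasi-likelihood test, Benjamini-Hochberg adjusted over the tested precursors (28.3% of the 1193) at a threshold of 0.05, the log2 fold change from 2 to 30 months was 0.49 (SE 0.17, adjusted p = 0.0581), or 1.41-fold. It was 0.23 (adjusted p = 0.811) at 9 months, 0.33 (adjusted p = 0.775) at 15 months and 0.20 (adjusted p = 0.518) at 24 months, each with an SE of 0.17. The 24-month value was 0.56 with library totals and passed (adjusted p = 0.00426). That scaling moved the median of all tested precursors at 24 months to 0.36. Relative to the median, mir-192 stood 0.20 higher with library totals and 0.21 higher with TMM. The 9-month value was 0.11 without the third and 0.1 without the fifth 9-month library. As a straight line over the 5 ages, mir-192 gained 0.13 on the log2 scale per 10 months (SE 0.05, adjusted p = 0.0908 in edgeR's test).

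The call at 30 months depended on the libraries and on the scaling. It passed without the third 30-month library (0.63, adjusted p = 0.0196) or without the second 2-month library (0.56, adjusted p = 0.0367), and when the 10 libraries of both ages were fitted by themselves (0.57, adjusted p = 0.0172). Scaling by library totals gave 0.73 (adjusted p = 0.000683), but it moved the median of all tested precursors from -0.04 to 0.20. Relative to that median mir-192 stood 0.53 higher under both scalings. The adjusted p of the linear trend ran from 0.000147 to 0.404. It did not pass without the 2-month libraries (0.11, adjusted p = 0.404) or without a filter (0.12, adjusted p = 0.231). It was 0.24 per 10 months with library totals (adjusted p = 0.000147), where the median of all tested precursors was 0.09. Relative to the median, the trend was 0.14 with library totals and 0.15 with TMM. It passed with a filter of 10 CPM (0.14, adjusted p = 0.0489). It also passed when 1 of 6 libraries was left out (adjusted p = 0.0381 to 0.0491). These were the second at 2, the third at 9, the fifth at 15, the first or the third at 24 or the third at 30 months. Over all alternatives the adjusted p of the 30-month comparison ran from 0.000683 to 0.158.

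mir-194-1 and mir-194-2 stayed near their 2-month level on the same scale. mir-194-1 stood at 125.7, 91.6, 97.1, 87.1 and 86.6 CPM at 2 months (97.6 ± 16.3, SD, n = 5) and at 107, 85.1, 93.5, 102 and 97.9 CPM at 30 months (97.2 ± 8.41). Its means between were 88.1 ± 8.64 at 9, 94.0 ± 14.1 at 15 and 84.0 ± 16.8 CPM at 24 months. mir-194-2 stood at 135.4, 107, 105, 100.3 and 98.1 CPM at 2 months (109 ± 15.1) and at 120, 98.9, 106, 110.3 and 113 CPM at 30 months (109.7 ± 8.03). Its means between were 100.2 ± 11.7, 106 ± 16.2 and 92.4 ± 20.9 CPM. All ages overlapped for both precursors, and the lowest library of either was the third at 24 months, with 59.5 and 67.4 CPM. The log2 change from 2 to 30 months was -0.0066 for mir-194-1 and 0.0074 for mir-194-2 (SE 0.14 and adjusted p = 0.987 for both in edgeR's quasi-likelihood test). At 24 months the changes were -0.22 (adjusted p = 0.359) and -0.24 (adjusted p = 0.304) in that test, and with library totals they turned to 0.14 and 0.12. Relative to the median of all tested precursors they were -0.21 and -0.23 with library totals, against -0.21 and -0.24 with TMM. Without the third 24-month library the changes with TMM were -0.08 and -0.11.

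**Figure D1:**
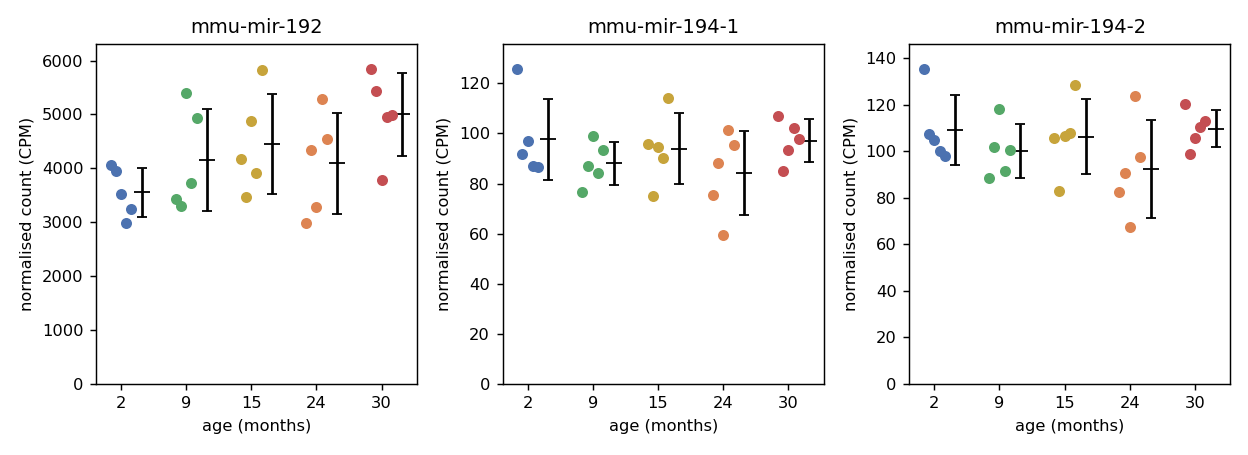
Normalised counts (CPM, linear axes from 0) of the 3 abundant precursors in each library, by age in months. Points are libraries, and the bar beside them is the mean ± SD of the 5 libraries. The mir-192 libraries at 30 months lie between 3780 and 5840 CPM against 2987 to 4052 CPM at 2 months, while the mir-194 precursors overlap throughout.

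No member passed edgeR's quasi-likelihood test in any of the 9 comparisons. The count was 0 of the 3 tested members for any difference between ages, where 7.99% of all tested precursors passed, and 0 of 3 for 9 against 2 months (2.07% of all), 15 against 2 months (1.48%), 24 against 2 months (12.1%) and 30 against 2 months (14.2%). It was 0 of 3 for 15 against 9 months (0% of all), 24 against 15 months (2.07%) and 30 against 24 months (0%), and for the linear trend (19.8%). At an unadjusted p under 0.05, 1 of the 3, mir-192, passed at 30 months and in the trend, and 0 passed in the other 7 comparisons. Of all tested precursors, 90 passed at that threshold at 30 months and 110 in the trend, against 48 and 67 after adjustment. DESeq2 and limma-voom called 0 of the 3 as well. The fourth member, mir-122, fell below the filter on low counts and was not tested there. Over all precursors, 0 passed for 15 against 9 months and for 30 against 24 months with each of the 3 tools, and 7 and 13 did at an unadjusted p under 0.05.

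**Figure D2:**
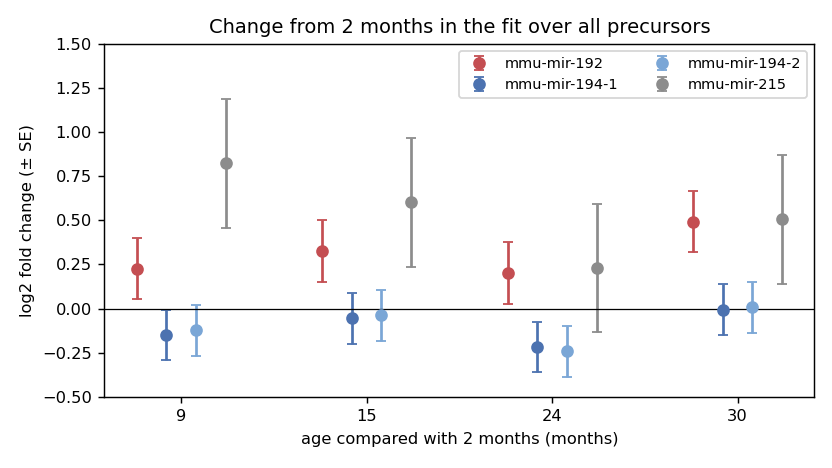
Log2 fold changes against 2 months (± SE, edgeR's fit over 25 libraries) for mir-192, the mir-194 precursors and mir-215, at 9, 15, 24 and 30 months. The mir-192 values are 0.23, 0.33, 0.20 and 0.49, and those of the mir-194 precursors lie between -0.24 and 0.01.

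mir-192 and mir-194-2 are neighbours in 1 cluster. The ratio of their reads within a library gives a comparison that no scaling can move. It does not measure that cluster alone, because reads of miR-194-5p fit mir-194-1 as well. At 2 months there were 29.9, 36.9, 33.6, 29.8 and 33.1 reads of mir-192 for each read of mir-194-2, a mean of 32.7 ± 2.94 (SD, n = 5). The ratios were 38.9, 32.3, 45.5, 40.6 and 49.1 at 9 months (41.3 ± 6.46), and 39.6, 41.8, 45.8, 36.2 and 45.4 at 15 months (41.8 ± 4.03). They were 36.3, 47.9, 48.6, 42.7 and 46.6 at 24 months (44.4 ± 5.11), and 48.5, 55, 35.7, 44.9 and 44.0 at 30 months (45.6 ± 7.04). At each later age 4 of 5 libraries lay above the highest 2-month value, 16 of the 20 older libraries in all, and 19 of 20 lay above the 2-month mean.

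**Figure D3:**
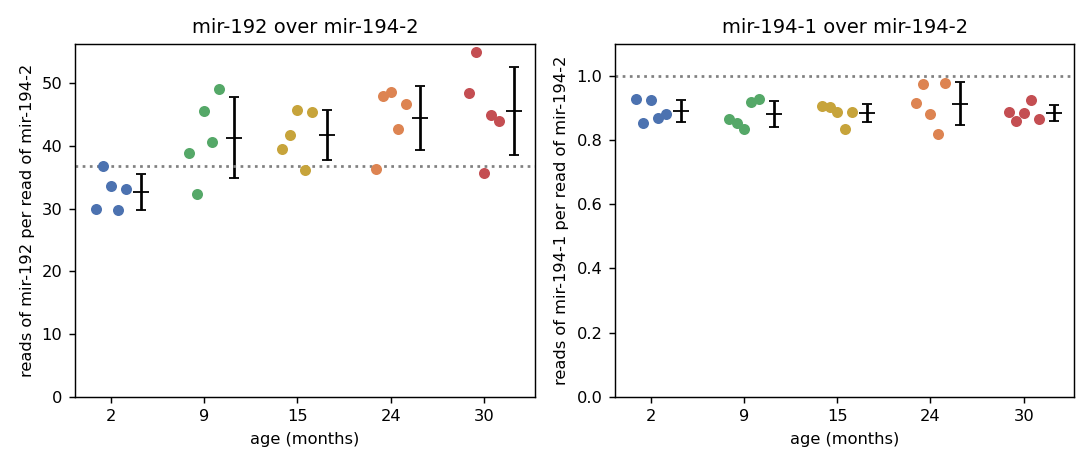
Read ratios within a library by age in months, on linear axes from 0, with points for libraries and bars for the mean ± SD of 5. On the left the dotted line marks the highest 2-month ratio of mir-192 to mir-194-2, 36.9, which 16 of the 20 older libraries exceed. On the right the dotted line marks equal reads of mir-194-1 and mir-194-2, and all 25 libraries lie under it.

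Tested age by age, these differences were larger than the SD of either age but did not pass the correction. The log2 ratio was higher than at 2 months by 0.33 (SE 0.12) at 9 months, with an exact two-sided permutation p of 0.0317. It was higher by 0.35 (SE 0.09) at 15 months, 0.44 (SE 0.10) at 24 months and 0.47 (SE 0.12) at 30 months, with an exact permutation p of 0.0159 each, where 5 libraries against 5 cannot give less than 0.00794. Adjusted over the 12 ratio tests these became 0.0952 at 9 months and 0.0635 at the other 3 ages. The 4 comparisons share the 2-month libraries. With mir-194-1 in place of mir-194-2, a choice made after seeing the data, the differences were 0.35, 0.36, 0.41 and 0.48 in order of age. With it 20 of 20 older libraries lay above the 2-month mean. Both precursors share miR-194-5p, so the swap is not a separate check. Without the second 9-month library the difference at 9 months was 0.41 (adjusted p = 0.0476 by exact permutation).

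The ratio was also compared inside sequencing lanes, which the column names give. At 30 months it was higher than in the 2-month library of the same lane in 4 of 4 lanes, by 0.11 to 0.89 on the log2 scale. It was higher in 4 of 4 lanes at 9 months (0.11 to 0.72), in 4 of 4 at 24 months (0.28 to 0.53) and in 3 of 4 at 15 months (-0.03 to 0.61). mir-192 itself was higher in 4 of 4 lanes at 30 and at 24 months, by as little as 0.0021 in lane 7 at 24 months, and in 3 of 4 lanes at 9 and at 15 months, with -0.30 in lane 4 and -0.02 in lane 5. Lanes held 1 library of most ages, so no test was made within them. No 2 libraries carried the same index bases in their column names, so the index cannot be told apart from the single library.

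mir-192 and mir-194 moved together between libraries. Over the 25 libraries the Pearson r of log2 CPM was 0.62 between mir-192 and mir-194-2 (Spearman rho 0.65) and 0.62 between mir-192 and mir-194-1 (rho 0.71), with a permutation p of 0.0023 for both r adjusted over 10 relations. Without the 2 libraries with the most extreme mir-192, r was 0.54 and 0.53. With every library set against the mean of its own age and libraries shuffled within ages, r was 0.75 for both pairs (adjusted permutation p = 0.000533 for mir-194-2 and 0.0003 for mir-194-1). The fifth 15-month library, for instance, held the highest mir-192 and mir-194-2 of its age (5832 and 129 CPM), and the second held the lowest (3465 and 82.8 CPM). Both values of a library share its scaling factor, and lanes held too few libraries for an r within them.

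**Figure D4:**
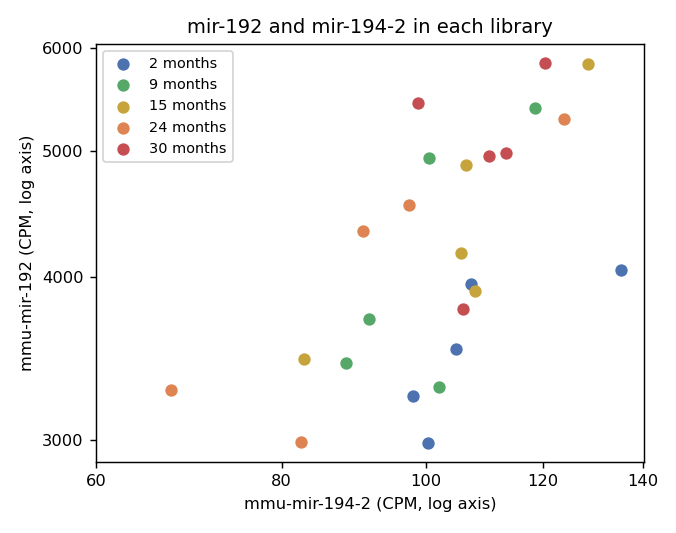
mir-192 against mir-194-2 in the 25 libraries (CPM, both axes logarithmic), coloured by age. The libraries lie along a rising line (r = 0.62), and those of the youngest mice lie at its lower edge, with 2987 to 4052 CPM of mir-192 at 98.1 to 135.4 CPM of mir-194-2.

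The 2 mir-194 precursors gave nearly the same profile, with r = 0.956 over the 25 libraries. mir-194-1 held fewer reads than mir-194-2 in 25 of 25 libraries, between 0.818 and 0.980 of them. That share was 0.892 ± 0.0338 (SD, n = 5) at 2 months and 0.885 ± 0.0262 at 30 months, and in the exact permutation tests of the 4 later ages the adjusted p was 0.840 each. Their 5p product is the same and the table does not separate the arms, so their counts cannot be assigned to one locus or the other.

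mir-192 tended to be higher in libraries of lower depth over the series. Its rank correlation with the library total was -0.54 (adjusted permutation p = 0.0154), with a Pearson r of -0.40 (adjusted permutation p = 0.117). Against the mean of each age the Pearson r was -0.22 (adjusted permutation p = 0.618). With levels scaled by library totals r was -0.67 for mir-192 and mir-194-1 and -0.71 for mir-194-2 (adjusted permutation p = 0.0005, 0.0005 and 0.00035), against -0.18 and -0.26 for the mir-194 precursors with TMM. In libraries thinned to the total of the smallest one, the change of mir-192 from 2 to 30 months was 0.47 (adjusted p = 0.0852 in edgeR's test), and the log2 ratio to mir-194-2 was higher by 0.45.

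mir-122 was close to the limit of detection in this blood. Its precursor lies at chr18:65248861-65248926 on the plus strand, in an exon of the non-coding transcript AC157910.3. It had 131 reads in the whole series, with a median of 4 per library. There was 1 library at 0, the first at 15 months, which still allows up to 3 reads, and 10 libraries had 3 reads or fewer. The highest libraries were the second at 9 months, with 24 reads (1.13 CPM), and the third at 15 months, with 19 reads (0.813 CPM). Both ran in lane 4, whose libraries at 2 and 24 months had 3 and 1 reads. The third highest library had 9 reads.

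Summed over the 5 libraries of an age, mir-122 had 18 reads or 0.215 CPM at 2 months (95% exact Poisson interval 0.128 to 0.340), 37 reads or 0.471 CPM at 9 months (0.331 to 0.649) and 37 reads or 0.418 CPM at 15 months (0.294 to 0.576). It had 19 reads or 0.231 CPM at 24 months (0.139 to 0.36) and 20 reads or 0.390 CPM at 30 months (0.238 to 0.603). These intervals cover counting error only. Averaged over libraries (SD, n = 5) mir-122 stood at 0.216 ± 0.0956 CPM in the youngest and 0.402 ± 0.0998 CPM in the oldest mice, and 3 of the 5 libraries at 2 months had 3 reads or fewer. In a fit without a filter the log2 change from 2 months was 1.06 (SE 0.54, adjusted p = 0.779) at 9 months, 0.995 (SE 0.54, adjusted p = 0.837) at 15 months, 0.09 (SE 0.61, adjusted p = 1) at 24 months and 0.82 (SE 0.61, adjusted p = 0.554) at 30 months in edgeR's test. Without the highest library of the age, which was left out after seeing the data, the sums were 13 reads or 0.226 CPM at 9 months and 18 reads or 0.276 CPM at 15 months, beside 0.177, 0.164 and 0.395 CPM at 2, 24 and 30 months. The ratio of mir-122 to mir-192 gave adjusted p-values of 0.590 to 0.960 in the exact permutation tests, and its r with mir-192 was -0.01. A change of this microRNA was not detectable at this depth.

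**Figure D5:**
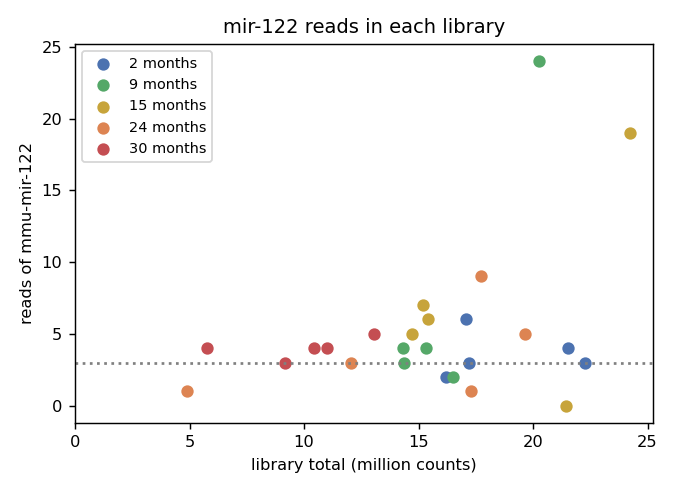
Reads of mir-122 in each library against the library total, coloured by age. The dotted line marks 3 reads, and 23 of the 25 libraries lie at 9 reads or fewer, with the other two at 24 and 19.

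mir-215, the hairpin with the seed of mir-192 and the neighbour of mir-194-1, varied more than mir-192 and the mir-194 precursors. Its means were 108 ± 43.9 CPM at 2 months, 191.7 ± 57.0 at 9, 165 ± 43.6 at 15, 127 ± 67.4 at 24 and 154 ± 104 at 30 months (SD, n = 5). The spread at 30 months ran from 62.4 CPM in the third library to 330 CPM in the first, the lowest and the highest of the series. The log2 change from 2 months was 0.82 (SE 0.37, adjusted p = 0.585) at 9 months and 0.51 (SE 0.37, adjusted p = 0.394) at 30 months in edgeR's test. The 30-month change was 0.02 without the first library of that age and 0.25 with lane in the fit. In 4 relations added after seeing the data, its r over the 25 libraries was 0.45 with mir-192 (rho 0.43, adjusted permutation p of r 0.101) and 0.33 with its neighbour mir-194-1 (rho 0.34, adjusted permutation p of r 0.139). Without the 2 libraries of most extreme mir-215 these were 0.29 and 0.24. Against the mean of each age, rho was 0.59 with mir-194-1 (adjusted permutation p = 0.0167), 0.52 with mir-194-2 (adjusted permutation p = 0.0317) and 0.49 with mir-192 (adjusted permutation p = 0.0332). The r of these pairs was 0.47, 0.34 and 0.46 (adjusted permutation p = 0.0581, 0.121 and 0.0581). Whether reads of miR-192-5p with mismatches were counted as miR-215-5p cannot be told from the table. Of the 20 older libraries, 3 had a ratio of mir-192 to mir-215 above the highest at 2 months, and 6 above the 2-month mean. The higher ratios seen over mir-194-2 thus did not appear over mir-215, and this ratio was not tested.

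Other microRNAs of liver and gut tissue showed no common change. Of the 4 listed (mir-215, mir-802, mir-148a and mir-375), all were tested, and 0 rose and 1 fell from 2 to 30 months. Of all tested precursors 14.2% passed in that comparison, so a count of 1 in 4 says little about the list. The median log2 change of the list was 0.23 against -0.04 over all tested precursors. The one that fell was mir-802, a microRNA of liver and pancreas, from 0.925 ± 0.191 to 0.452 ± 0.273 CPM (-1.02 on the log2 scale, SE 0.30, adjusted p = 0.0261 in edgeR's test). That call held in 9 of 18 alternatives. It was lost, among others, in libraries thinned to the smallest total (-1.03, adjusted p = 0.231) and without replicate 1 at 2 months (-0.97, adjusted p = 0.0678). It was also lost without replicate 2 (-0.84, adjusted p = 0.0936), 3 (-0.95, adjusted p = 0.0569) or 5 (-0.84, adjusted p = 0.0908) at 30 months. At that age mir-802 was close to the limit of detection. Its libraries ran from 0.184 to 0.901 CPM, where 3 reads made 0.23 to 0.522 CPM of the library total. mir-148a, abundant in liver but found in many tissues, stood at 985 ± 243 and 1023 ± 128 CPM (0.05, adjusted p = 0.874). mir-375, of pancreatic islets and endocrine cells of the gut, stood at 6.48 ± 1.54 and 8.66 ± 2.29 CPM (0.41, adjusted p = 0.241). In the trend over months the count was again 0 up and 1 down, where 19.8% of all tested precursors passed.

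Markers of epithelium and of blood cells gave values beside those of mir-192, and their part in its level was not tested. From 2 to 30 months 14.2% of all tested precursors passed, and the counts of these short lists stand beside that share. Those of red cells, lymphocytes and muscle were not above it. Of the 6 epithelial precursors (the mir-200 family and mir-205), 4 were tested and 0 rose and 1, mir-205, fell from 2 to 30 months (adjusted p = 0.0426 in edgeR's test, passing in 4 of 18 alternatives). The summed level of the 6 ran from 61.5 to 119 CPM at 2 months and from 12.6 to 65.2 CPM at 30 months. Most of it was mir-141 (means of 79.8 and 39.9 CPM), which did not pass (adjusted p = 0.138 in edgeR's test). In the same comparison, of the 8 red cell precursors 0 rose and 1 (mir-144) fell. Of the 4 of neutrophils and monocytes 3 rose (mir-223 and mir-23a, both called in 19 of 19 alternatives, and mir-27a, called in 10). The fourth, mir-142a, did not pass (0.16 on the log2 scale, adjusted p = 0.656 in edgeR's test). The sums of the 4, 6905 to 8399 and 7971 to 9709 CPM, were mostly mir-142a, with means of 7500 and 8372 CPM. Of the 6 of lymphocytes 0 passed the test, with sums of 1548 to 2130 and 1182 to 1955 CPM. Of the 4 of platelets and endothelium 2 fell (mir-126a and mir-199a-1), with sums of 13.4 to 18.1 and 3.13 to 8.64 CPM. Of 7 muscle precursors 3 were tested and 0 passed, with sums of 26 to 236 and 10.2 to 44.2 CPM. The red cell share of counts ran from 75.1% to 76.6% at 2 months and from 71.8% to 77.2% at 30 months.

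The precursors whose pattern was most like that of the members were taken from 149 candidates of at least 10 CPM, by Spearman's rho over the 25 libraries. For mir-192 they were mir-132 (rho 0.61), mir-700 (0.60), mir-532 (0.60), mir-1843b (0.58) and mir-24-2 (0.57). Of these mir-132 and mir-24-2 rose from 2 to 30 months (log2 change 0.50, adjusted p = 0.0229, and 0.43, adjusted p = 0.00755, in edgeR's test), called in 14 and 18 of 19 alternatives. For mir-194-2 they were mir-22 (rho 0.66), mir-3473d (0.60), mir-19b-1 (0.58), mir-532 (0.56) and mir-674 (0.54), and 0 of these 5 passed the test at 30 months. For mir-122 the highest values were 0.55 (mir-146a), 0.47 (mir-146b), 0.44 (mir-10a), 0.35 (mir-203) and 0.35 (mir-3074-2), over counts too low to read a likeness from. These are descriptions of libraries that share depth and scaling.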

How the data were processed

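The authors deposited 1 table of raw read counts per microRNA precursor for 25 blood libraries. Per the submitters' processing notes, bcl2fastq 1.8.4, Trimmomatic 0.36 and SAMtools 1.3.1-9 were used. No label or header names the aligner, genome build or annotation, and each precursor has 1 row, with no split by arm. Columns were matched to libraries by title, and replicates were numbered in accession order.

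The counts were tested with edgeR 4.0.16 (TMM, filterByExpr by age, robust quasi-likelihood fit of 25 libraries, 28.3% of the 1193 precursors tested, threshold 0.05 after Benjamini-Hochberg adjustment). The common biological coefficient of variation was 28.1%. DESeq2 1.42.0 and limma 3.58.1 (voom) served as alternatives, beside other scalings, filters, lane in the fit and left-out libraries. Ratios (count + 0.5) were compared by exact permutation over 252 arrangements, and correlations of log2 (CPM + 0.5) by 100000 resamples, with scipy 1.17.1. No pair of libraries of 1 age differed by as little as sampling noise (chi-square over its degrees of freedom at least 161).

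The members and the marker lists were chosen with earlier results of these data known. Named precursors are the members, the lists, hairpins that share a mature sequence or a 5p seed with a member, and the 5 closest patterns of mir-192, mir-194-2 and mir-122. Sequences and coordinates are from RefSeq and GENCODE vM21 on GRCm38.p6.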

Additional observations from a re-analysis of the deposited data

Results flagged for a closer look

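In the first 2-month library mir-194-1 stood at 125.7 CPM and mir-194-2 at 135.4 CPM, each further from the other 4 libraries (the next were at 97.1 and 107 CPM) than Dixon's 95% critical ratio of 0.71 allows. Both values come from the same library and share the reads of miR-194-5p, so they are not separate signs. mir-122 stood apart in the third 2-month library, at 0.382 CPM against 0.206 CPM in the next, which rests on 6 reads. It also stood apart in the second 9-month library, at 1.13 CPM against 0.325 CPM in the next, from 24 reads. These are 4 of 20 groups of 5 libraries, where chance flags about 1 in 20. On a log2 scale 2 of the 20 groups held such a value.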

How the results depend on the processing

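The cause of each change below was not tested. Precursors passing for any age numbered 27, and 44 with library totals, 17 with no filter or 10 CPM, and 16 with lane in the fit or thinned libraries. For 9 against 2 months 7 became 4 with upper quartile factors or lane. For 15 against 2 months 5 became 3 with library totals, 10 CPM, lane, thinning or voom, and 2 with the compared libraries alone. For 24 against 2 months 41 became 72 with library totals and 24 with upper quartile factors, no filter or thinning. For 30 against 2 months 48 became 15 without a filter, 29 with 10 CPM and 19 after thinning. For 24 against 15 months 7 became 16 with library totals, 2 with upper quartile factors, 1 with no filter or thinning, and 0 with the compared libraries alone. The trend's 67 became 39, 44 (10 CPM) and 9 without the 2-month libraries.

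mir-192 at 30 months (0.49) was 0.73 with library totals and 0.57 with the compared libraries alone, and its trend (0.13) was 0.24 with library totals and 0.14 with 10 CPM. All values that changed sign had passed no test. Library totals also moved the median of all tested precursors, to 0.36 at 24 and 0.20 at 30 months against 2 months. With library totals mir-192 turned to 0.12 for 24 against 15 months, mir-194-1 to 0.07, 0.14, 0.25 (15, 24 and 30 against 2 months), 0.07 (24 against 15) and 0.09 (trend), and mir-194-2 to 0.08 and 0.12 (15 and 24 against 2 months), 0.04 (24 against 15) and 0.09 (trend). mir-194-1 at 30 months was 0.04 with upper quartile factors, 0.01 with lane, 0.08 with the compared libraries alone and 0.0037 with voom, and its trend 0.01 with upper quartile factors, 0.05 without 2 months and 0.007 after thinning. At 15 months without a filter it was 0.03. mir-194-2 at 15 months was 0.05 without a filter and 0.0087 with lane, at 30 months -0.01 without a filter or with DESeq2 and -0.0076 with 10 CPM, and its trend 0.008 with upper quartile factors and 0.04 without 2 months. The mir-194-1 to mir-194-2 ratio at 15 months was 0.0076 after thinning, and that of mir-122 to mir-192 was 0.03 with a pseudocount of 1. Correlations with mir-122 turned to 0.2 (mir-192, library totals), and within ages to -0.06 (mir-194-1), -0.0016 (mir-194-2) and 0.08 (depth). On the log2 scale 2 libraries stood apart.

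Leaving out 1 library gave 14 to 31 precursors for any age, 3 to 7 (9 against 2 months), 3 to 4 (15), 25 to 36 (24), 27 to 45 (30), 1 to 7 (24 against 15) and 43 to 74 (trend). mir-192 ran from 0.43 to 0.63 at 30 months, 0.11 to 0.17 in the trend and -0.21 to 0.0045 for 24 against 15 months, and its log2 ratio to mir-194-2 from 0.26 to 0.41 at 9 months. mir-194-1 ran from -0.11 to 0.06 at 15 months, -0.05 to 0.07 at 30 months and -0.03 to 0.02 in the trend, and mir-194-2 from -0.1 to 0.08, -0.03 to 0.08 and -0.03 to 0.02. mir-148a at 30 months ran from -0.06 to 0.18. The mir-194-1 to mir-194-2 ratio ran from -0.03 to 0.0092 at 15 and -0.03 to 0.0038 at 30 months. The ratio of mir-122 to mir-192 ran from -0.15 to 0.64, -0.42 to 0.77 and -0.57 to 0.12 at 9, 15 and 24 months. No paired analysis was possible because the labels give no replicate numbers shared between ages. A block by lane could be fitted, and it gave 0.49 for mir-192 at 30 months (adjusted p = 0.0667). mir-122 had a median of 4 reads, which limits its precision.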
